A study of Mus musculus with 8 samples.

Results

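De novo lipogenesis is the route by which the liver turns surplus carbohydrate into fatty acids. Citrate leaves the mitochondrion through the carrier Slc25a1, Acly cleaves it to acetyl-CoA, and Acss2 makes acetyl-CoA from acetate. Acaca and Acacb carboxylate acetyl-CoA to malonyl-CoA, and Fasn joins malonyl-CoA units into palmitate with NADPH that comes partly from malic enzyme, Me1. In liver these genes are known to be driven by carbohydrate through ChREBP, which Mlxipl encodes, and by insulin through SREBP-1c. Thrsp encodes the small nuclear and cytosolic protein Spot 14, a lipogenic regulator, and Pnpla3 encodes a lipid droplet protein that both factors are known to induce.

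These 10 genes were taken by symbol from the deposited table of 38283 genes, and all 10 were found. The table holds FPKM, fragment estimates scaled to transcript length and library size, from poly-A RNA of whole liver in 8 libraries. The mice were male C57BL/6 and carried floxed Rora alleles. The RORα f/f mice had no Cre, and the RORα LKO mice also carried Alb-Cre, used to delete exons 4 and 5 selectively in liver. Which liver cell types lost these exons was not measured here. At 8 weeks of age both genotypes were put on a control diet (CD) or a high fat diet (HFD), which they ate for 10 weeks. A library held RNA pooled from 2 mice, and each of the 4 groups had 2 libraries, so that p-values measured the spread between pools. In whole liver, fewer cells of a type and less RNA per cell cannot be told apart.

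Rora itself did not separate the genotype labels on HFD. It stood at 7.56 and 7.86 FPKM in the f/f HFD libraries and at 7.30 and 8.02 FPKM in the LKO HFD libraries (log2 difference 0.014, SE 0.07, limma adjusted p = 0.97). On CD the f/f libraries had 8.85 and 8.59 FPKM and the LKO libraries 7.96 and 8.18 FPKM (log2 difference -0.10, SE 0.07, adjusted p = 0.61). The study reports a marked loss of Rora mRNA and protein in LKO liver and in primary hepatocytes, measured apart from these libraries. A gene-level FPKM adds reads from exons outside the deletion, and their part in these values was not tested. Genotype is therefore used below as a label. The steps between low FPKM values put the depth of the libraries between 0.826 and 1.15 of that of f/f CD replicate 1, and 10587 to 10706 genes exceeded 1 FPKM in each library. Alb, the main hepatocyte transcript, was listed at 0 in 4 libraries (LKO CD replicate 1, f/f HFD replicate 2 and both LKO HFD libraries) and between 29901.7 and 30887.5 FPKM in the others, a 0 that can be a failed estimate. None of the 10 genes was listed at 0 in any library. The 5 skeletal muscle markers were read because Acacb is also a muscle gene, and all stayed under 1 FPKM (summed 0.183 to 0.987), with Acta1 and Tnnt3 at 0. Of 9 adipocyte markers, Adipoq, Lep, Retn and Plin1 stayed under 1 FPKM in every library; the summed list ran from 764.7 to 1194.1 FPKM on CD and from 500.8 to 708.8 FPKM on HFD, of which Pck1, also a liver gene, made up most. Of these 9, Cfd, the adipocyte gene for adipsin (5.45 and 5.29 FPKM in LKO HFD, 0.488 and 1.87 in f/f HFD), and Lpl (2.55 and 1.87 against 1.43 and 1.25) were higher in LKO HFD without overlap, Adipoq (0 and 0 against 0.377 and 0.212) and Retn (0.0743 and 0 against 0.098 and 0.081) were lower, and 5 overlapped. Of 7 hepatocyte markers, Cps1 of the urea cycle moved with diet and label: it stood at 785.7 and 793.0 FPKM in f/f CD, 668.9 and 700.5 in LKO CD, 596.5 and 665.9 in f/f HFD, and 455.6 and 454.8 in LKO HFD. Apoa1 was lower in every HFD library (4407.4 to 4869.2 FPKM) than in every CD library (5079.9 to 6289.8), and Ttr was higher in LKO HFD (4302.2 and 4200.2) than in f/f HFD (4196.1 and 4034.2). The other lists are given as summed ranges over all libraries: Kupffer cell (61.7 to 107.8 FPKM), endothelial (31.1 to 46.6), stellate (5.73 to 8.84), leukocyte (2.15 to 4.03) and cholangiocyte (2.05 to 2.67). Endothelial Stab2 and leukocyte Nkg7 were lower in LKO HFD than in f/f HFD without overlap. Leukocyte Itgax and cholangiocyte Sox9 were higher, and the other genes of these 3 lists overlapped. By diet, Krt19 and Pck1 were lower in every HFD library than in every CD library, and Fabp4 and Des higher. Between the f/f HFD and LKO HFD libraries the Kupffer cell list did not overlap (61.7 to 74.5 against 76.6 to 107.8), and 3 of its 7 genes, Clec4f, Vsig4 and Cd68, were higher in LKO HFD without overlap. Of 5 stellate markers, Col1a1 and Col3a1 were higher in LKO HFD and Des and Acta2 lower (Acta2 0.543 and 0.405 FPKM against 1.09 and 1.51). Such separation was common: 19.1% of all genes tested were higher and 23.0% lower in LKO HFD than in f/f HFD without overlap. In 10.3% every HFD library lay below every CD library. The part of these markers in the differences below was not tested.

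The sequences before RefSeq transcript starts were read for all 10 genes, since members that move together raise the question of which motifs lie there. RefSeq windows of 250 bases (GRCm38.p6) were searched on both strands for the E-box CACGTG, part of the element that ChREBP binds as a pair, for the sterol regulatory element core TCACNCCAC (GTGGNGTGA on the other strand), and for the nuclear receptor core AGGTCA, read as TGACCT on the other strand, which RORα binds with an AT-rich flank. No match overlapped another. Of 12 windows (Me1 and Mlxipl have 2 each), 2 held the E-box, 1 the sterol core and 1 the receptor core. Among 32817 windows of the same length, 6.02% held the E-box, 1.05% the sterol core and 14.0% the receptor core. The 5 windows that follow are shown 5′ to 3′ on the gene's strand, with the match in capitals: those with a match, and that of Fasn, the enzyme that makes palmitate, which had none.
Slc25a1, chr16:17928220-17928469, minus strand: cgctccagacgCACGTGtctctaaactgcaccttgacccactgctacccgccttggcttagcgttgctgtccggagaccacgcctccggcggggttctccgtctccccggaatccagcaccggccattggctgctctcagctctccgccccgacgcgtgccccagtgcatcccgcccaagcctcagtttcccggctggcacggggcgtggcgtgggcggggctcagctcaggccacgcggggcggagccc
Acly, chr11:100528001-100528250, minus strand: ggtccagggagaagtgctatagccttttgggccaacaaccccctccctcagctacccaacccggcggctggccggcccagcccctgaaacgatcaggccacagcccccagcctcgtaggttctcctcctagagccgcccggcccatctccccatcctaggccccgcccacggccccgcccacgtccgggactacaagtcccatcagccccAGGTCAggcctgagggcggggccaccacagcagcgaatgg
Fasn, chr11:120824548-120824797, minus strand: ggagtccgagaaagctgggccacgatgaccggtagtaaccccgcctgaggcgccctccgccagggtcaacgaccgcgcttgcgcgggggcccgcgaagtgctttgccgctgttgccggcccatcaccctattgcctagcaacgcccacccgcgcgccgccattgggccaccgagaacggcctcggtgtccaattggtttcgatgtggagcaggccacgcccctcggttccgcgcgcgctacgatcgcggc
Mlxipl, chr5:135089640-135089889, plus strand: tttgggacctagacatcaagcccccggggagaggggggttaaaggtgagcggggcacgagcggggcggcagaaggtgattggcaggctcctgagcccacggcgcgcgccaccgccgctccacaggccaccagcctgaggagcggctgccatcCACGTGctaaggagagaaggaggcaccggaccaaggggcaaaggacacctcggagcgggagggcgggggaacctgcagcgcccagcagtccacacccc
Mlxipl, second start, chr5:135106641-135106890, plus strand: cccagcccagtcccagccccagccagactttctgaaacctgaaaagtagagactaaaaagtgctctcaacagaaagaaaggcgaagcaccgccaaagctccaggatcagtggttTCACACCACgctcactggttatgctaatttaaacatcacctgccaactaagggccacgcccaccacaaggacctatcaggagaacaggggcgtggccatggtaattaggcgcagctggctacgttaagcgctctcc
The E-box of Slc25a1 began 239 bases before the start and that of the first Mlxipl window 98 bases before it. The receptor core of Acly began 40 bases upstream, and the bases just before it, cagcccc, are not AT-rich. The sterol core lay 136 bases before the second Mlxipl start. The Mlxipl starts are 17001 bases apart. ChREBP is known in a longer and a shorter form made from separate promoters, and the gene-level FPKM adds them together. None of the 3 motifs, as spelled above, was found in these windows of Acss2, Me1, Acaca, Acacb, Fasn, Thrsp or Pnpla3. The study writes the receptor core as (A/G)GGTCA, and its form GGGTCA was not part of the search. Read on either strand, GGGTCA lies in the windows of Slc25a1, Acss2 and Fasn and in 1 of Me1. How often it occurs among all windows was not counted. A window precedes 1 RefSeq start, and 4 of the 12 lay wholly inside the span that GENCODE gives the gene: those of Acaca and Acacb, 1 of Me1 and the second of Mlxipl ended 65766, 18983, 8676 and 17001 bases past the GENCODE start. A further 3 lay partly inside it (Acss2, Thrsp and the other of Me1), and other starts of these genes were not searched.

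Most transcripts of the pathway were lower on HFD than on CD. Over both genotype labels, 7 of the 9 genes that passed the expression filter fell on HFD: Fasn, Acly, Acacb, Thrsp, Acaca, Acss2 and Slc25a1. None of the 9 rose (5.04% of all genes did), and Me1 and Mlxipl did not pass the test. Of all 11634 genes tested, 4.86% were called lower in the same comparison. In 6 genes every HFD library lay below every CD library, as in 10.3% of all genes. The median of the 9 log2 differences was -0.89, against 0.011 over all genes. The plot of FPKM by library shows the values of all 10 genes, whose positions are given below on GRCm38 from GENCODE.

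**Figure D1:**
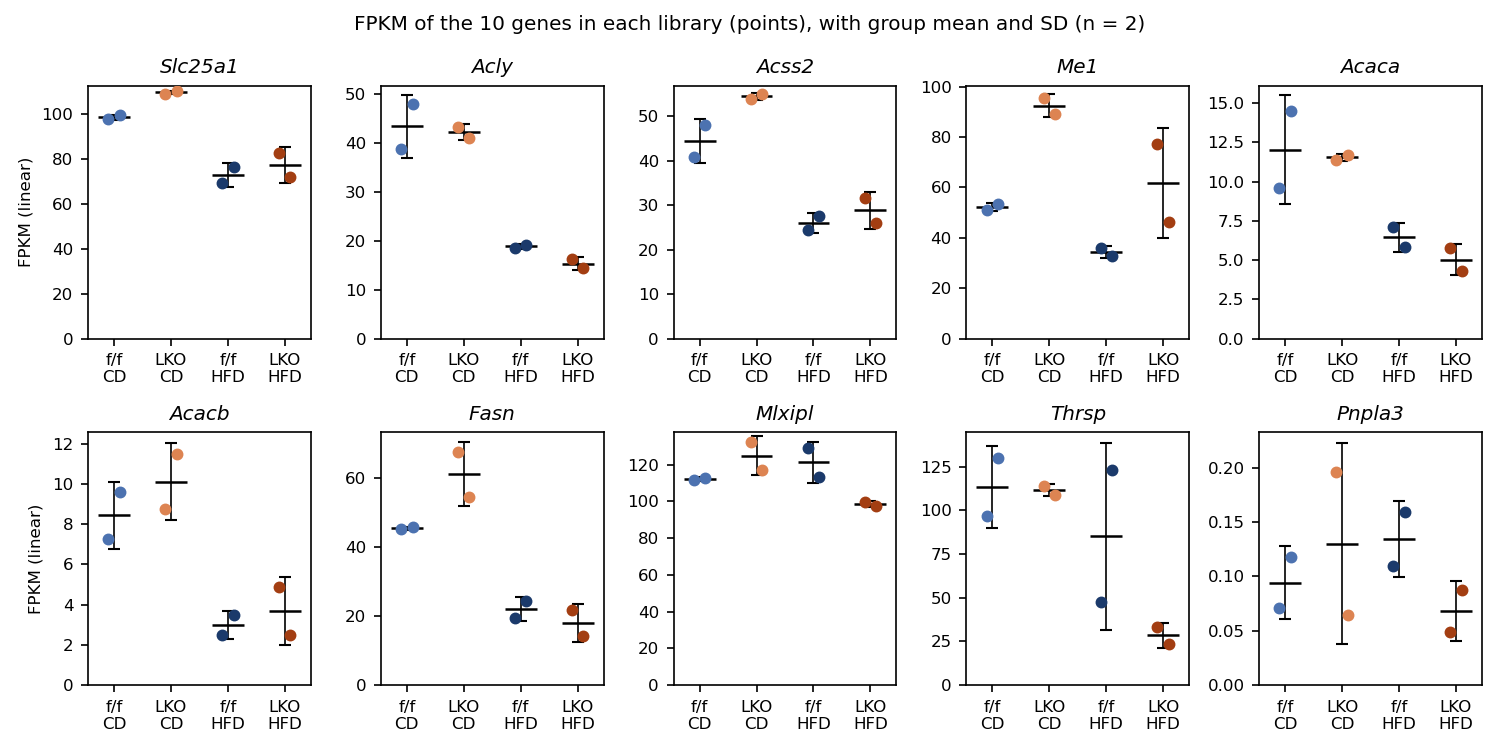
FPKM (linear axes from 0) of each of the 10 genes in each of the 8 libraries; points are libraries, horizontal lines group means and bars SD (n = 2). Acly, Acss2, Acaca, Acacb, Fasn and Slc25a1 were lower in every HFD library than in every CD library, Mlxipl stayed between 97.6 and 132.5, and Pnpla3 stayed below 0.2.

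The citrate carrier Slc25a1 (ENSMUSG00000003528, chromosome 16, 17925223 to 17928219) was among the more abundant of these transcripts. It stood at 97.9 and 99.5 FPKM in f/f CD, 109.2 and 110.2 in LKO CD, 69.2 and 76.5 in f/f HFD, and 82.9 and 71.8 in LKO HFD. Every HFD library lay below every CD library, and the fall over both genotypes was 0.40 on the log2 scale (SE 0.07, limma adjusted p = 0.016). The call was lost without f/f CD replicate 2 (adjusted p = 0.066), LKO CD replicate 2 (0.062) or f/f HFD replicate 1 (0.058).

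Acly (ENSMUSG00000020917, chromosome 11, 100476353 to 100528000) had the smallest p of the 9 tested genes. It stood at 38.8 and 47.9 FPKM in f/f CD, 43.3 and 41.0 in LKO CD, 18.5 and 19.2 in f/f HFD, and 16.2 and 14.4 in LKO HFD. The diets did not overlap under either genotype label. Acly fell by 1.25 on the log2 scale over both genotypes (SE 0.08, adjusted p = 0.0016), to 40.0% of the mean CD level, and it was the only one of the 9 genes to pass within the f/f libraries (log2 difference -1.12, SE 0.12, adjusted p = 0.025), where 0.705% of all genes were called lower. It fell by 1.37 in the LKO libraries (SE 0.12, adjusted p = 0.0095). The pooled call held without any 1 library (adjusted p from 0.0028 to 0.012). The f/f call was lost without f/f CD replicate 2 (0.075), either f/f HFD library (0.11 and 0.087), LKO CD replicate 2 (0.054) or either LKO HFD library (0.051 and 0.055). The LKO call was lost without LKO CD replicate 2 (0.0503) or LKO HFD replicate 2 (0.061).

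Acss2 (ENSMUSG00000027605, chromosome 2, 155517948 to 155585724), which draws on acetate in place of citrate, moved the same way with a smaller size. It stood at 40.9 and 48.0 FPKM in f/f CD, 53.9 and 55.0 in LKO CD, 24.4 and 27.6 in f/f HFD, and 31.7 and 25.9 in LKO HFD. The HFD libraries were all below the CD libraries. The log2 difference was -0.78 over both genotypes (SE 0.09, adjusted p = 0.0075), a call that held without any 1 library. Exons of Acss2 share 395 bases with Gss, 197 with Ggt7 and 335 with Acss2os on the opposite strand, of 10163 bases in all, and the strand setting of the quantification is not given in the sources used here.

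Me1 (ENSMUSG00000032418, chromosome 9, 86581371 to 86695953), which yields NADPH while turning malate into pyruvate, was the one enzyme of the supply group that did not pass for diet. It stood at 51.1 and 53.4 FPKM in f/f CD, 95.7 and 89.2 in LKO CD, 36.0 and 32.7 in f/f HFD, and 77.1 and 46.4 in LKO HFD. Under each label the HFD libraries were below the CD libraries, but the LKO HFD libraries overlapped those of f/f CD. The log2 difference for diet over both genotypes was -0.54 (SE 0.16, adjusted p = 0.078). It passed without LKO HFD replicate 1 (adjusted p = 0.014).

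The acetyl-CoA carboxylases were the least abundant of the tested enzymes per length. Acaca (ENSMUSG00000020532, chromosome 11, 84129672 to 84401651), the cytosolic form that supplies malonyl-CoA for synthesis, stood at 9.58 and 14.5 FPKM in f/f CD, 11.4 and 11.7 in LKO CD, 7.11 and 5.81 in f/f HFD, and 5.74 and 4.33 in LKO HFD. All 4 HFD libraries were below all 4 CD libraries, and Acaca fell by 0.89 on the log2 scale (SE 0.14, adjusted p = 0.014). The call was lost without LKO CD replicate 2 (0.062), f/f HFD replicate 2 (0.055) or LKO HFD replicate 2 (0.057).

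Acacb (ENSMUSG00000042010, chromosome 5, 114146535 to 114250761), the form at the mitochondrial surface whose malonyl-CoA restrains fatty acid entry into mitochondria, had the larger fall relative to its level on CD. It stood at 7.27 and 9.63 FPKM in f/f CD, 8.76 and 11.5 in LKO CD, 2.50 and 3.48 in f/f HFD, and 4.87 and 2.48 in LKO HFD. The diets did not overlap, and the mean over the HFD libraries was 35.8% of that over the CD libraries. On the fitted scale the log2 difference was -1.24 (SE 0.20, adjusted p = 0.015), and that scale, log2(FPKM + 1), understates changes of low genes. The call was lost without f/f CD replicate 2 (0.068), LKO CD replicate 2 (0.065) or f/f HFD replicate 1 (0.061). The ratio of Acaca to Acacb FPKM was 1.32 and 1.51 in f/f CD, 1.30 and 1.01 in LKO CD, 2.85 and 1.67 in f/f HFD, and 1.18 and 1.75 in LKO HFD. The f/f HFD ratios lay above those of f/f CD, whereas the LKO HFD and LKO CD ratios overlapped.

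Fasn (ENSMUSG00000025153, chromosome 11, 120805846 to 120824547), whose product palmitate ends the pathway, had the largest fall of the 9 on the fitted log2(FPKM + 1) scale over both genotypes, while Acacb fell further as a share of its CD mean. It stood at 45.2 and 45.8 FPKM in f/f CD, 67.7 and 54.6 in LKO CD, 19.5 and 24.5 in f/f HFD, and 21.8 and 14.1 in LKO HFD. The CD libraries were all above the HFD libraries, with the LKO CD pair highest. Fasn fell by 1.35 on the log2 scale over both genotypes (SE 0.15, adjusted p = 0.0063), to 37.5% of the CD mean, and the call held without any 1 library (adjusted p from 0.0085 to 0.037).

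Summed over the 7 genes from the citrate carrier to fatty acid synthase, FPKM was 290.7 and 318.8 in f/f CD, 389.9 and 373.2 in LKO CD, 177.2 and 189.8 in f/f HFD, and 240.3 and 179.4 in LKO HFD. Each HFD library lay below each CD library, and the LKO CD pair lay above the f/f CD pair.

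Of the regulators, Mlxipl (ENSMUSG00000005373, chromosome 5, 135089890 to 135138382) varied least. It stood at 111.6 and 112.9 FPKM in f/f CD, 132.5 and 117.3 in LKO CD, 129.3 and 113.2 in f/f HFD, and 99.8 and 97.6 in LKO HFD. The 2 LKO HFD libraries were the lowest of the 8, while both f/f HFD libraries lay above both f/f CD libraries. The log2 difference for diet was -0.056 over both genotypes (SE 0.07, adjusted p = 0.63). Exons of Mlxipl share 235 of 5538 bases with the antisense gene Gm43500. Within labels the difference was 0.14 for f/f (SE 0.09, adjusted p = 0.45) and -0.25 for LKO (SE 0.09, adjusted p = 0.19).

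Thrsp (ENSMUSG00000035686, chromosome 7, 97412938 to 97417730) had the largest SD in FPKM between libraries of one group (53.4 in f/f HFD). It stood at 96.5 and 129.7 FPKM in f/f CD, 113.9 and 109.0 in LKO CD, 47.4 and 123.0 in f/f HFD, and 33.3 and 23.5 in LKO HFD. One f/f HFD library was in the CD range and the other well under it, and both LKO HFD libraries were lower still. The diet difference over both genotypes was -1.20 (SE 0.29, adjusted p = 0.0497). That call held in 1 of the 8 fits that left out 1 library, the fit without f/f HFD replicate 2 (adjusted p = 0.02), and without any of the other 7 the adjusted p lay between 0.06 and 0.15.

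Pnpla3 (ENSMUSG00000041653, chromosome 15, 84167837 to 84187236) was barely detected. It stood at 0.0705 and 0.118 FPKM in f/f CD, 0.196 and 0.0646 in LKO CD, 0.110 and 0.159 in f/f HFD, and 0.0488 and 0.0875 in LKO HFD. No library reached the filter of 1 FPKM, so Pnpla3 was not tested. Groups next to each other in the order of their means overlapped. Both LKO HFD libraries lay below both f/f HFD libraries, all at barely detected levels. Pnpla3 is the one gene of the 10 outside all counts of called genes. Its exons share 105 of 1548 bases with Gm49513 on the same strand.

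Within genotype labels fewer genes passed. In the LKO libraries 4 of 9 were called lower on HFD, Acly, Fasn (log2 difference -1.70, SE 0.21, adjusted p = 0.019), Acss2 (-0.86, SE 0.13, adjusted p = 0.03) and Acaca (-1.03, SE 0.20, adjusted p = 0.047), where 1.44% of all genes were called lower. Thrsp had the largest difference there, -1.90, with an adjusted p of 0.062 (SE 0.41). It passed when either f/f HFD library was left out (adjusted p = 0.037 without replicate 2). In the f/f libraries Fasn differed by -1.0 (SE 0.21, adjusted p = 0.078), Acss2 by -0.71 (SE 0.13, 0.062), Acacb by -1.21 (SE 0.28, 0.091) and Acaca by -0.76 (SE 0.20, 0.11). The calls of Acss2 and Acaca in the LKO libraries were lost whichever library was left out (adjusted p from 0.054 to 0.14 and from 0.051 to 0.2). That of Fasn was lost without either f/f CD library (0.051 and 0.053), either LKO CD library (0.074 and 0.09) or LKO HFD replicate 2 (0.079). By the rule of unadjusted p under 0.05 and a log2 difference of at least 0.5, 6 genes were lower in f/f, against 3.43% of all genes, and 7 in LKO, against 3.35%. The plot of diet differences by genotype label sets the 2 estimates side by side.

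**Figure D2:**
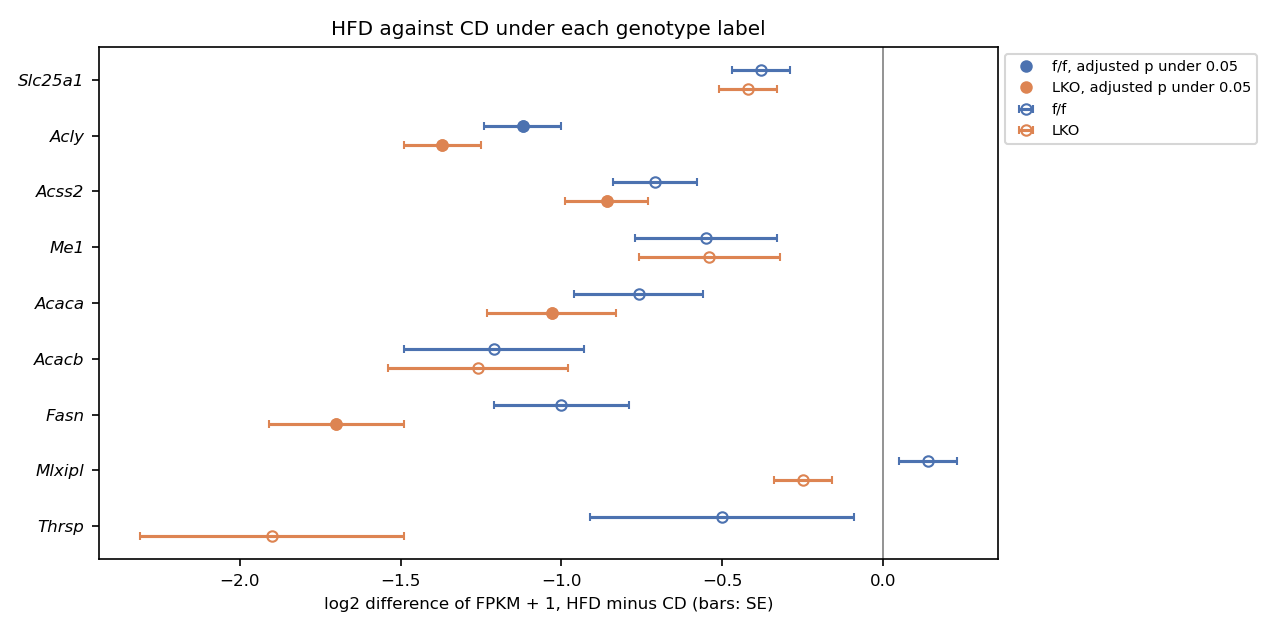
Fitted log2 difference of FPKM + 1, HFD minus CD, for the 9 tested genes in f/f and LKO libraries (n = 2 per group); bars are SE and filled points have adjusted p under 0.05. Every enzyme lies left of 0 under both labels, Mlxipl lies at 0.14 and -0.25, and Thrsp at -0.50 and -1.90.

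The difference between the 2 diet responses was tested as the interaction of genotype and diet, and no gene of the 9 passed (limma, 0 calls, against 0.0344% of all genes; limma without its trend also made 0). At an unadjusted p under 0.05 there were 2, Mlxipl and Thrsp, against 8.35% of all genes. The interaction was -0.40 for Mlxipl (SE 0.13, adjusted p = 0.56), -1.40 for Thrsp (SE 0.58, adjusted p = 0.59) and -0.70 for Fasn (SE 0.30, adjusted p = 0.61). For Me1 it was 0.012 (SE 0.31, adjusted p = 0.99). The larger falls of Fasn and Thrsp under the LKO label were therefore not distinguishable from the spread between libraries after adjustment.

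Between genotype labels, Me1 stood higher in LKO on both diets and was the only one of the 9 whose labels separated the same way on both. The FPKM ratio of LKO to f/f means was 1.77 on CD and 1.80 on HFD. No overlap in the higher direction on both diets was seen for 5.62% of all genes. The log2 difference was 0.81 on CD (SE 0.22, adjusted p = 0.26), 0.83 on HFD (SE 0.22, adjusted p = 0.32) and 0.82 over both diets (SE 0.16, adjusted p = 0.13), so that none passed after adjustment. The LKO HFD libraries decided much of the HFD value: it was 0.44 without LKO HFD replicate 1 (adjusted p = 0.65) and 1.21 without replicate 2 (adjusted p = 0.026), and over both diets it was 1.01 without replicate 2 (adjusted p = 0.0074). Exons of Me1 share 30 of 3848 bases with the antisense gene A330041J22Rik.

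On HFD, 0 of the 9 genes passed between labels by limma, against 0.043% of all genes, and limma without its trend also called 0. At an unadjusted p under 0.05 there were 3, Me1, Thrsp and Mlxipl, against 9.58% of all genes. Thrsp was lower in both LKO HFD libraries than in either f/f HFD library, with a ratio of means of 0.333 and a log2 difference of -1.41 (SE 0.41, adjusted p = 0.35). That value was -2.08 without f/f HFD replicate 1 and -0.73 without f/f HFD replicate 2. Mlxipl differed by -0.25 (SE 0.09, adjusted p = 0.47), Acly by -0.26 (SE 0.12, adjusted p = 0.56) and Acaca by -0.30 (SE 0.20, adjusted p = 0.68). Acly, Acaca, Mlxipl and Thrsp separated in the lower direction, as did 23.0% of all genes, and Me1 in the higher direction, as did 19.1%. Fasn, Acss2, Slc25a1 and Acacb overlapped between labels. The median of the 9 differences was -0.25, against -0.00067 over all genes, and it was 0.021 without LKO HFD replicate 2, -0.15 without f/f HFD replicate 1 and -0.12 without f/f HFD replicate 2.

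On CD, 0 of the 9 genes passed by limma, against 0.0172% of all genes, with or without its trend, and 1 (Me1) had an unadjusted p under 0.05, against 12.3%. Fasn was higher in both LKO CD libraries (log2 difference 0.41, SE 0.21, adjusted p = 0.49), as was Acss2 (0.31, SE 0.13, adjusted p = 0.42). Slc25a1, Acss2, Me1, Fasn and Mlxipl separated in the higher direction, as did 20.8% of all genes, and none of the 9 separated in the lower, as 22.6% did. Acly and Thrsp differed by -0.0035 (SE 0.12) and -0.0010 (SE 0.41). Over both diets 0 of the 9 passed by limma, with or without its trend, against 0.103% of all genes, and 3 had an unadjusted p under 0.05, Me1, Thrsp (-0.70, SE 0.29, adjusted p = 0.36) and Acss2 (0.23, SE 0.09, adjusted p = 0.36), against 13.5%. The plot of genotype differences by diet shows these estimates.

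**Figure D3:**
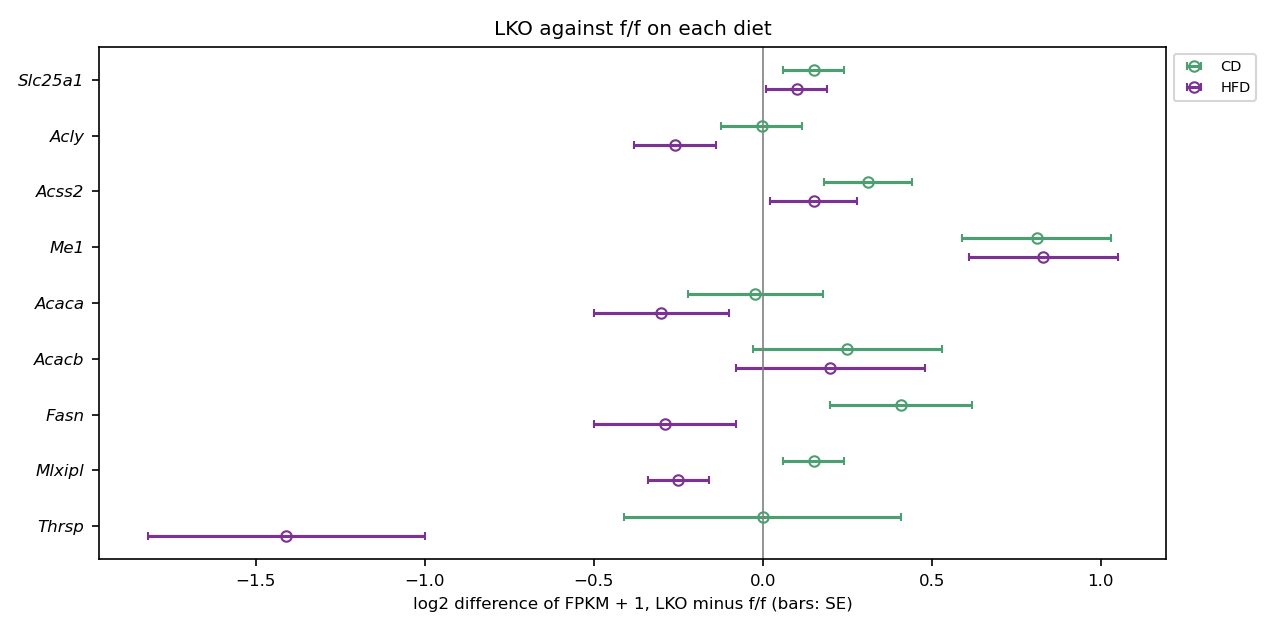
Fitted log2 difference of FPKM + 1, LKO minus f/f, for the 9 tested genes on CD and on HFD (n = 2 per group); bars are SE, and no point has an adjusted p under 0.05. Me1 lies at 0.81 and 0.83, while Thrsp lies at 0 on CD and at -1.41 on HFD.

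Other genes that act on the pathway were read by list, with calls at adjusted p under 0.05. Of 9 regulators of SREBP-1c, Insig2, which holds SREBP in the endoplasmic reticulum, was the only gene of any list called between genotype labels. It stood at 66.5 and 67.9 FPKM in f/f CD, 106.4 ± 9.14 (mean ± SD, n = 2) in LKO CD, 82.4 and 81.0 in f/f HFD, and 156.6 and 155.6 in LKO HFD. The LKO libraries were higher on both diets, with log2 differences of 0.94 on HFD (SE 0.08, adjusted p = 0.029, where 0.0086% of all genes were called higher) and 0.65 on CD (SE 0.08, adjusted p = 0.089). Insig2 also rose with HFD (0.50, SE 0.06, adjusted p = 0.0067), while its paralog Insig1, itself an SREBP target, fell by 0.56 (SE 0.08, adjusted p = 0.012).

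Srebf1, which encodes SREBP-1, stood at 39.3 and 31.9 FPKM in f/f CD, 59.6 and 54.7 in LKO CD, 40.4 and 49.0 in f/f HFD, and 34.3 and 30.9 in LKO HFD. The LKO CD libraries were the highest, and the LKO HFD libraries overlapped the f/f CD libraries. Srebf1 fell by 0.74 on HFD in the LKO libraries (SE 0.13, adjusted p = 0.04), and its interaction did not pass (-1.09, SE 0.19, adjusted p = 0.36). It was not called in f/f (0.35, SE 0.13, adjusted p = 0.22) or over both genotypes (-0.20, SE 0.09, adjusted p = 0.23).

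Among 11 partners of ChREBP and glucose-responsive genes, 2 rose and 3 fell on HFD over both genotypes, against 5.04% and 4.86% of all genes, and the median difference was -0.022. Gpd1, which makes glycerol 3-phosphate, rose by 0.43 (SE 0.06, adjusted p = 0.0094) and Gckr by 0.28 (SE 0.06, adjusted p = 0.04). Within labels Gpd1 rose by 0.66 in LKO (SE 0.08, limma adjusted p = 0.019) and by 0.20 in f/f (SE 0.08, adjusted p = 0.25). The LKO call was lost in some fits that dropped a library, and the interaction of Gpd1 did not pass (0.46, SE 0.12, adjusted p = 0.54). G6pc, the last enzyme of glucose release, fell by 2.04 (SE 0.10, adjusted p = 0.00053), Tkfc of fructose breakdown by 0.64 (SE 0.09, adjusted p = 0.01) and Txnip, whose product binds thioredoxin, by 0.87 (SE 0.20, adjusted p = 0.045). The ChREBP partner Mlx differed by -0.22 (SE 0.08, adjusted p = 0.15) and the glycolytic target Pklr by -0.06 (SE 0.15, adjusted p = 0.84).

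Of 5 other genes of NADPH supply, Pgd of the pentose phosphate pathway fell by 0.39 on HFD over both genotypes (SE 0.07, adjusted p = 0.02) and cytosolic Idh1 by 0.24 (SE 0.05, adjusted p = 0.029), where 4.86% of all genes fell. G6pdx (0.11, adjusted p = 0.48), Tkt (-0.25, adjusted p = 0.15) and Taldo1 (-0.039, adjusted p = 0.75) did not pass. All 5 had positive differences for LKO against f/f on both diets, none of which passed (the range on HFD was 0.06 to 0.33).

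Of 11 tested genes that lengthen, desaturate, activate or esterify fatty acids, 3 fell and 1 rose on HFD over both genotypes, where 4.86% of all genes fell and 5.04% rose. Elovl6, which extends palmitate, fell by 1.71 (SE 0.23, adjusted p = 0.0095). Its level was 10.9 and 20.1 FPKM in f/f CD, 13.9 and 18.5 in LKO CD, 3.82 and 4.73 in f/f HFD, and 4.82 and 2.71 in LKO HFD. The activating enzymes Acsl3 and Acsl5 fell by 0.62 (SE 0.13, adjusted p = 0.035) and 0.44 (SE 0.06, adjusted p = 0.012), and Dgat2, which completes triglyceride, rose by 0.28 (SE 0.04, adjusted p = 0.014). Within labels, Dgat2 differed by 0.44 in f/f (SE 0.06, limma adjusted p = 0.037) and 0.12 in LKO (SE 0.06, 0.32). Acsl5 differed by -0.62 in f/f (SE 0.09, 0.038) and -0.26 in LKO (SE 0.09, 0.17). Both f/f calls were lost whichever library was left out. Neither interaction passed (Dgat2 -0.32, SE 0.09, and Acsl5 0.36, SE 0.13, each with adjusted p = 0.56). Scd1, the delta-9 desaturase, varied too widely within groups to pass. It stood at 696.4 and 1436.8 FPKM in f/f CD, 1675.9 and 1516.3 in LKO CD, 234.1 and 761.9 in f/f HFD, and 1562.2 and 558.6 in LKO HFD, with a diet difference of -0.72 (SE 0.50, adjusted p = 0.40) and a genotype difference on HFD of 1.34 (SE 0.71, adjusted p = 0.62).

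Of 7 tested genes that control acetyl-CoA carboxylase or malonyl-CoA, 2 fell and 1 rose on HFD over both genotypes, beside the same shares of all genes. Mid1ip1, the paralog of Thrsp that helps the carboxylase polymerise, fell by 0.63 over both genotypes (SE 0.10, adjusted p = 0.013), and by 1.05 in the LKO libraries (SE 0.13, adjusted p = 0.019) against 0.21 in the f/f libraries (SE 0.13, adjusted p = 0.43). The difference between these did not pass (interaction -0.83, SE 0.19, adjusted p = 0.52). Malonyl-CoA decarboxylase, Mlycd, fell by 0.24 (SE 0.06, adjusted p = 0.045), and Trib3 rose by 0.77 (SE 0.15, adjusted p = 0.029). The 4 AMPK subunit genes did not pass.

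For comparison, 7 of 12 genes of cholesterol synthesis, which SREBP-2 drives, fell on HFD over both genotypes and none rose (4.86% of all genes fell and 5.04% rose). Fdps fell by 1.86 (SE 0.24, adjusted p = 0.0085), Cyp51 by 1.61 (SE 0.18, adjusted p = 0.0064) and Dhcr7 by 1.23 (SE 0.10, adjusted p = 0.0033). Their median was -0.60, beside -0.89 for the 9 genes of lipogenesis, and none was called between genotype labels. The plot by gene list shows all of these lists on one scale.

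In fits that each dropped a library, the diet calls over both genotypes held in all 8 fits for Insig1, Insig2, G6pc, Gpd1, Elovl6, Acsl5, Fdps, Cyp51, Dhcr7 and Lss. They held in 7 fits for Tkfc, in 6 for Dgat2, Mid1ip1 and Idi1, in 5 for Sqle and Sc5d and in 3 for Pgd. Those of Txnip, Acsl3 and Trib3 held in 2, that of Gckr in 1 and those of Idh1 and Mlycd in 0, where the adjusted p ran from 0.057 to 0.09 and from 0.053 to 0.14. In the LKO libraries the call of Mid1ip1 held in 3 fits and that of Srebf1 in 0 (adjusted p from 0.062 to 0.18). The genotype call of Insig2 held in 2 of 8 fits on HFD (adjusted p from 0.025 to 0.16) and in 8 of 8 over both diets (log2 difference 0.79, adjusted p from 0.0036 to 0.044).

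**Figure D4:**
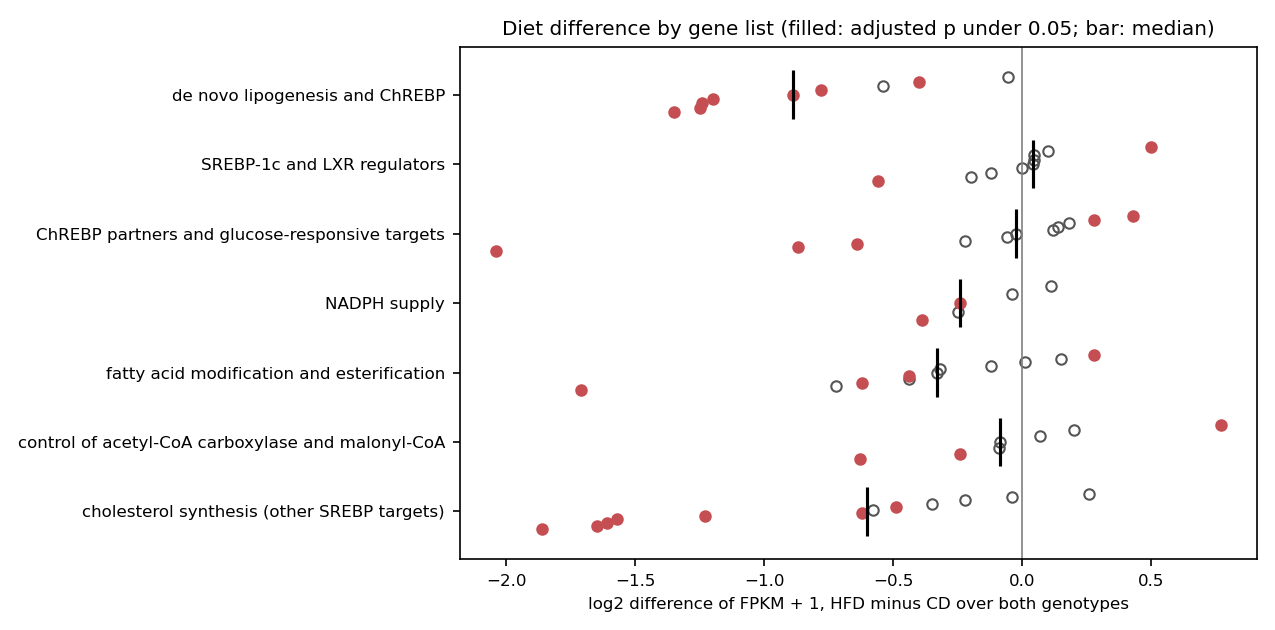
Fitted log2 difference of FPKM + 1, HFD minus CD over both genotypes, for each tested gene (points) of the lipogenic genes and 6 other lists; filled points have adjusted p under 0.05 and bars are list medians. The lipogenic genes have a median of -0.89 and no point above 0, whereas the ChREBP partners and targets spread from -2.04 to 0.43.

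Over the 8 libraries, which share the diet difference, Slc25a1, Acss2 and Acacb had the most similar patterns of the 9 genes (Pearson r from 0.98 to 0.994). With group means removed, r for these 3 pairs was between 0.934 and 0.948. That r rests on only 1 difference between 2 libraries in each of the 4 groups. The pairs were also picked as the closest, so it is a description only. Mlxipl was least like the others: its r ran from 0.0758 with Me1 to 0.448 with Thrsp, and was 0.422 with Fasn and 0.228 with Acss2. Me1 and Thrsp were as unlike each other (0.0757). Among 9839 genes above 1 FPKM in all libraries, those most like Fasn were Amot (0.984), Nr2c1 (0.980) and Bst2 (0.977). Those most like Thrsp were Sec22c (0.967), Cers6 (0.962) and Keg1 (0.959), and those most like Mlxipl were Cdk5rap1 (0.944), Hira (0.899) and Mppe1 (0.890). These genes too were picked as the closest of the 9839 over only 8 libraries, so their r is a description only.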

How the data were processed

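Poly-A RNA-seq of 8 liver libraries was analysed. The authors trimmed reads with cutadapt (1.0), aligned them to GRCm38 with TopHat2 (2.0.7) and estimated the deposited FPKM with Cufflinks, per the submitters' processing notes and the study's methods. No read counts were used, so FPKM were tested on a log scale. Of 38283 gene identifiers, 36341 matched a symbol, and coordinates came from GENCODE M21. Genes above 1 FPKM in at least 1 library (11634) were log2(FPKM + 1) transformed, quantile normalized and fitted as 4 group means with limma 3.58.1 (R 4.3.3), which gave 4 residual and 2.8 prior degrees of freedom. P-values were Benjamini-Hochberg adjusted over all tested genes within each contrast, and a gene was called at an adjusted p under 0.05. The study's permutation of samples was not used. The fit was tried on simulated data with independent noise, for diet over both genotypes only. The other contrasts were not tried in this way. Depth is known only relative to 1 library. Groups came from the labels. The genes and lists were chosen with earlier results of these data known. In the text, every one of the 10 genes is named, as is every called gene of a list or otherwise its largest differences, and for Fasn, Thrsp and Mlxipl the 3 most similar genes. The planned comparison of proteins was not made here, and 3 genes of the lists are not reported here.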

Additional observations from a re-analysis of the deposited data

How the results depend on the processing

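Alternatives changed the normalization, pseudocount, filter, variance model, replicate block, libraries fitted, or left out 1 library. Of the single-gene values 883 were unchanged in direction and call, 59 lost and 12 gained a call, and 27 changed sign, all of uncalled differences. The number of lipogenic genes called for diet in f/f (1) was 2 without quantile normalization, 3 with FPKM above 1 in all 8 libraries and 0 with only the libraries compared; in LKO (4) it was 7 with FPKM above 1 in all 8, 2 with any FPKM above 0 and 0 with only the libraries compared. Fewer samples enter the last of these. Other causes were not tested.

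Leaving out 1 library gave 0 to 1 called for genotype on HFD, 0 to 1 for genotype over both diets, 0 to 1 for diet in f/f, 0 to 3 for diet in LKO and 3 to 7 for diet over both genotypes. The lowest, 3, was without LKO CD replicate 2. The median difference ran from -0.83 to -0.49 for diet in f/f, -0.29 to 0.021 for genotype on HFD and -0.43 to -0.031 for the interaction. Signs changed for genotype on HFD in Slc25a1 (-0.0052 to 0.21), Acss2 (-0.011 to 0.32), Acacb (-0.18 to 0.59) and Fasn (-0.60 to 0.021). They changed for genotype on CD in Acly (-0.15 to 0.15), Acaca (-0.29 to 0.25) and Thrsp (-0.22 to 0.22, and 0.0006 with median centring), and over both diets in Fasn (-0.092 to 0.22). For the interaction they changed in Slc25a1 (-0.15 to 0.07), Acss2 (-0.32 to 0.014), Acacb (-0.43 to 0.34) and Me1 (-0.37 to 0.40, and -0.026 without quantile normalization and -0.025 with median centring), and for diet in f/f in Thrsp (-1.17 to 0.18).

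Same-numbered libraries did not deviate together (Pearson r from -0.00371 to 0.149), so the numbers were not taken as pairs. A replicate block in the fit left 2 genes called for diet in LKO and 6 for diet over both genotypes. Over all genes, calls ran from 5 to 323 for diet in f/f (155 as reported), 0 to 570 in LKO (351), 374 to 1304 for diet over both genotypes (1151), 4 to 24 for genotype on HFD (5), 0 to 19 on CD (2), 7 to 50 over both diets (12) and 0 to 21 for the interaction (4). FPKM give no counting error, so low values such as those of Pnpla3 carry no interval.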
